A study of Mus musculus with 6 samples.

Results

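The CYP4 family holds cytochrome P450 enzymes that add a hydroxyl group to the far (omega) end of fatty acids and of eicosanoids such as arachidonic acid and leukotrienes. In liver the hydroxylated fatty acid can be oxidized to a dicarboxylic acid and shortened in peroxisomes. Cyp4a10 and Cyp4a14 are textbook target genes of PPARalpha, the fatty acid-sensing nuclear receptor of hepatocytes, whereas Cyp4a12a and its close relative Cyp4a12b are known in mouse for higher expression in males and for control by androgens and growth hormone. Ncoa2 encodes SRC-2, one of the p160 proteins that nuclear receptors recruit to activate transcription.

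The 9 CYP4 genes considered were Cyp4a10, Cyp4a12a, Cyp4a12b, Cyp4a14, Cyp4b1, Cyp4f13, Cyp4f14, Cyp4f15 and Cyp4v3, and their members on the array were the probe sets annotated with exactly 1 of these symbols. This rule gave 8 of 45101 probe sets, for 7 genes. Cyp4v3 had 2 probe sets and the other 6 genes 1 each. Cyp4a12b had 0 probe sets, and Cyp4a10 appeared only on a probe set annotated to both Cyp4a10 and Cyp4a31, so that the values of that probe set are given beside the members and not as those of Cyp4a10. All 7 genes were bright enough to be tested.

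The livers came from female SRC-2 null mice and female wild-type mice, both on a C57 background, with 3 arrays per genotype. Animals of both genotypes were ovariectomized at 6 weeks of age and killed 2 weeks later under Avertin anaesthesia, so that neither genotype had ovaries. The labels describe neither the null allele nor the cell types in which it acts, and do not say whether an array stands for 1 animal, so the p-values reflect only how these samples spread, and that spread may be technical. Values are log2 expression values computed by the authors with robust multi-array average (RMA), and a log2 fold change is the SRC-2 null mean minus the wild-type mean.

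Ncoa2 read 5.60, 5.44 and 5.86 on the SRC-2 null arrays, against 7.74, 7.92 and 8.53 on the wild-type arrays (log2 fold change -2.44, limma adjusted p = 0.000353). A second Ncoa2 probe set fell as well (-2.16), and its other probe sets, at 0.07 and -0.27, did not pass. Array medians lay between 4.17 and 4.24. Replicate 3 of both genotypes stood apart from replicates 1 and 2 across the 11889 genes tested. Values within replicates are therefore given beside the main results, although numbers 1 and 2 were not shown to pair samples. Of the 11889 genes tested, 184 (1.55%) were higher and 372 (3.13%) lower in SRC-2 null liver (limma, Benjamini-Hochberg adjusted p under 0.05). With replicate number as a block, 307 were higher. The 11 hepatocyte markers tested were bright on every array, with values of at least 10.9, and 0 of them changed, while 16 of 17 macrophage markers fell with a median log2 fold change of -0.94. In whole liver, fewer cells of a type and less RNA per cell cannot be told apart. The total of 556 changed genes was 303 without SRC-2 null replicate 1, 294 without SRC-2 null replicate 2, 331 without wild-type replicate 1 and 275 without wild-type replicate 2.

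In SRC-2 null liver Cyp4a12a rose and Cyp4f14 fell, while the other 5 measured CYP4 genes did not pass the test. These 2 of 7 tested members (28.6%) stand beside 4.68% of all genes tested. Tested probe set by probe set, the same 2 genes were called, beside 2.43% of the single-gene probe sets and 2.37% of all probe sets above the filter. In 1 direction each, 1 member was higher, beside 1.55% of all genes, and 1 was lower, beside 3.13%. The median log2 fold change was 0.12 over the 7 members and 0.00 over all genes tested.

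Cyp4a12a, known in mouse as a main arachidonic acid omega-hydroxylase, was 3.85-fold higher in SRC-2 null liver. Its probe set read 8.41, 8.39 and 8.27 on the SRC-2 null arrays, against 6.34, 6.35 and 6.53 on the wild-type arrays. Every SRC-2 null array lay above every wild-type array. The means were 8.35 ± 0.08 in SRC-2 null liver and 6.41 ± 0.11 in wild-type liver (SD, n = 3 each), a log2 fold change of 1.95 (SE 0.0908, 95% interval 1.74 to 2.16, limma adjusted p = 1.36e-05). By the size of its rise Cyp4a12a ranked 3 among the 184 higher genes, and by p-value it ranked 15 among all genes tested. Within replicates 1, 2 and 3 the difference was 2.06, 2.04 and 1.73 on the log2 scale, and in replicates 1 and 2 only the log2 fold change was 2.05 (limma adjusted p = 0.000913). Cyp4a12b is a close relative encoded near Cyp4a12a, and whether the probe set also detects its transcript was not tested.

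Cyp4a14, a PPARalpha target that hydroxylates medium-chain fatty acids, did not pass the test. It read 12.84, 12.61 and 12.48 on the SRC-2 null arrays, against 12.53, 12.57 and 12.46 on the wild-type arrays, and the groups overlapped. The log2 fold change was 0.12, with a 95% interval of -0.12 to 0.37 (limma adjusted p = 0.627). Within replicates 1, 2 and 3 the difference was 0.31, 0.05 and 0.02, so SRC-2 null replicate 1 carried most of it, and without that array the log2 fold change was 0.03.

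The probe set annotated to both Cyp4a10 and Cyp4a31 was likewise not called. It read 13.60, 13.44 and 13.29 on the SRC-2 null arrays, against 13.26, 13.27 and 13.16 on the wild-type arrays. The groups did not overlap, but the difference was small, with a log2 fold change of 0.21 and a 95% interval of -0.03 to 0.46 (limma adjusted p = 0.426 over the 22500 probe sets above the filter). Both probe sets lay near the top of the scale, with 99.7% (Cyp4a14) and 99.9% (the shared set) of all probe sets dimmer. The probe sets of Cyp4a31 alone gave log2 fold changes of 0.18 and -0.19, and neither passed.

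The contrast between the Cyp4a genes was tested on each array as the Cyp4a12a value minus the Cyp4a14 value, since only these 2 of the 4 Cyp4a members had a probe set of their own. This difference was -4.43, -4.22 and -4.21 on the SRC-2 null arrays, against -6.18, -6.22 and -5.93 on the wild-type arrays. The genotype effect on Cyp4a12a thus exceeded that on Cyp4a14 by 1.82 on the log2 scale (95% interval 1.5 to 2.14), a 3.54-fold larger ratio. The groups did not overlap, and the exact two-sided permutation p was 0.10, the smallest that 3 against 3 arrays allow. Set against the probe set shared by Cyp4a10 and Cyp4a31 in place of Cyp4a14, the excess was 1.73 (95% interval 1.43 to 2.04, exact permutation p = 0.10), an alternative chosen after seeing the data. On mouse chromosome 4 the genes lie in the order Cyp4a12a, Cyp4a12b, Cyp4a14, Cyp4a10, Cyp4a31 and Cyp4b1 among other family members, so the gene that rose and the PPARalpha targets share 1 cluster.

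Cyp4b1, at the end of the same cluster and best known for activating protoxins in lung, read 6.97, 7.18 and 7.15 on the SRC-2 null arrays, against 6.79, 6.72 and 6.82 on the wild-type arrays. The groups did not overlap, yet the log2 fold change of 0.32 (95% interval 0.12 to 0.53) did not pass after adjustment (limma adjusted p = 0.0976).

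**Figure D1:**
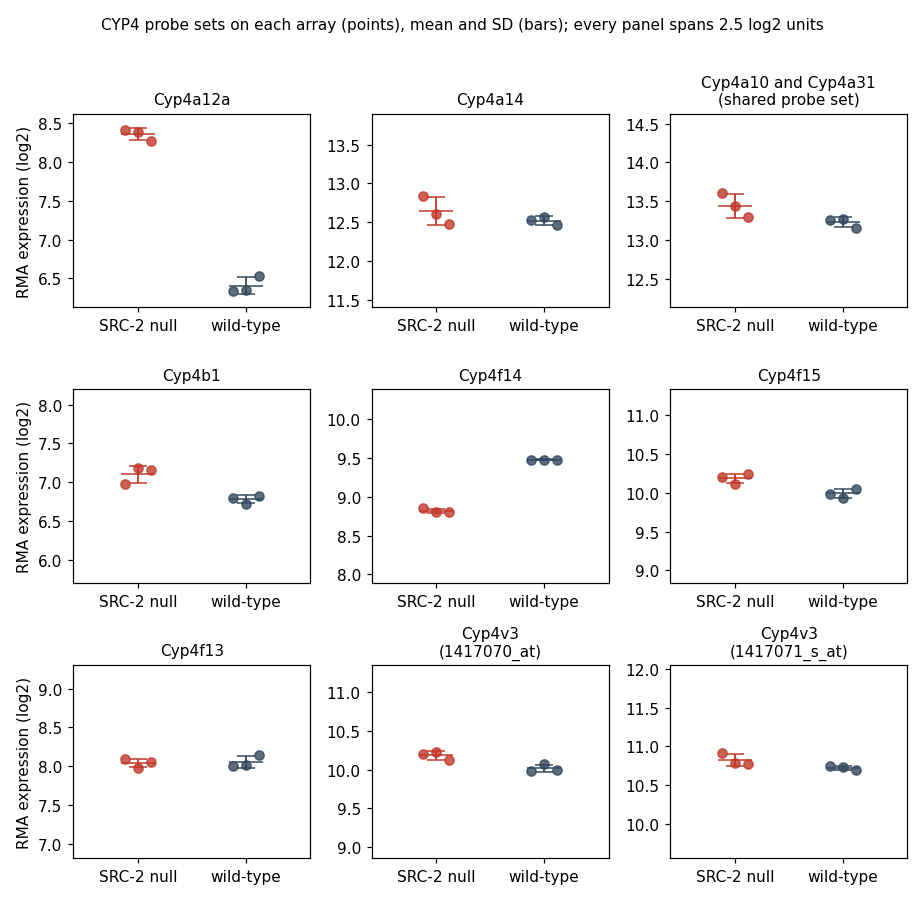
RMA expression on the log2 scale for the 8 CYP4 probe sets and the probe set shared by Cyp4a10 and Cyp4a31, with a point for each of the 3 SRC-2 null and 3 wild-type arrays and bars for the mean and SD. Every panel spans the same number of log2 units, so the gap of 1.95 for Cyp4a12a and that of -0.66 for Cyp4f14 can be set against the small differences in the other panels.

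The Cyp4f genes form a second cluster on chromosome 17, where Cyp4f15, Cyp4f14 and Cyp4f13 follow each other in that order within the family. Genes outside the family were left out of this order. Because Cyp4f15, Cyp4f14 and Cyp4f13 differed in response, the 250 bases before the start of each are shown here from RefSeq (GRCm38.p6). They run 5′ to 3′ on the strand of the gene. Capitals mark the CCAAT box, which stands on the opposite strand and so reads ATTGG. For Cyp4f14, which has 4 listed starts, the first was taken. The windows are chr17:32917357-32917606 on the minus strand for Cyp4f14, chr17:32685409-32685658 on the plus strand for Cyp4f15 and chr17:32947362-32947611 on the minus strand for Cyp4f13.
Cyp4f14: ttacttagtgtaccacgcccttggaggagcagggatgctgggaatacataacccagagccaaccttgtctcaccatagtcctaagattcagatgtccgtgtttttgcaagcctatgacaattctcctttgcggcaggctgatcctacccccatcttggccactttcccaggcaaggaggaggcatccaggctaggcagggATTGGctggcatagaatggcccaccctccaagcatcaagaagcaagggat
Cyp4f15: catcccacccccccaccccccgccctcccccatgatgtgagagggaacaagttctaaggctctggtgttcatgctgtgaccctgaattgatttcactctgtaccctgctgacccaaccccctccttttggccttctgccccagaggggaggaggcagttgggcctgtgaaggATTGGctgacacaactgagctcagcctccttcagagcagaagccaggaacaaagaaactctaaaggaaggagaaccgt
Cyp4f13: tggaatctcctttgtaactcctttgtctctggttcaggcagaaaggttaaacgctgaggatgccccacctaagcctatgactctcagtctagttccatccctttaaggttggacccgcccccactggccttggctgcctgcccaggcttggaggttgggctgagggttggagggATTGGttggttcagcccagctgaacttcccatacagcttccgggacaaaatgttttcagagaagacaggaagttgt

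Each of the 3 windows held 1 CCAAT box, whose first base lay at position -50 from the start in Cyp4f14, -78 in Cyp4f15 and -76 in Cyp4f13. A CCAAT box on either strand was present in 33.8% of 32851 promoter windows of this length. In global alignments the Cyp4f14 window was identical to that of Cyp4f15 in 48.8% and to that of Cyp4f13 in 50.2% of aligned columns. Unrelated windows were not aligned, so these shares cannot be read as likeness or as lack of it. The direct repeat bound by PPARalpha with its partner RXR, searched as AGGTCA, any 1 base and AGGTCA again, was in 0 of the 5 member windows (those of Cyp4b1 and Cyp4v3 included) and in 0.0335% of all windows, and a single AGGTCA was in 0 of 5 and in 14% of all. The STAT5 motif TTCNNNGAA was in the windows of Cyp4b1 and Cyp4f13 and in 7.02% of all. Both strands were searched, and the single copy lies within the repeat. No promoter window was matched for Cyp4a10, Cyp4a12a, Cyp4a12b or Cyp4a14, so the PPARalpha targets Cyp4a10 and Cyp4a14 were not searched. An exact repeat this rare would be absent from almost any 5 windows. Its absence therefore says nothing about PPARalpha sites in these genes.

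Cyp4f14, an enzyme that omega-hydroxylates leukotriene B4 in mouse, was 1.58-fold lower in SRC-2 null liver. It read 8.85, 8.80 and 8.80 on the SRC-2 null arrays, against 9.48, 9.47 and 9.48 on the wild-type arrays, and the groups did not overlap. The means were 8.81 ± 0.03 in SRC-2 null liver and 9.47 ± 0.01 in wild-type liver (SD, n = 3 each), a log2 fold change of -0.66 (SE 0.0747, 95% interval -0.83 to -0.49, limma adjusted p = 0.00177). Its pooled SD of 0.0212 was smaller than that of nearly all genes, with only 0.379% of the genes tested below it. Its rank by size was 201 among the 372 lower genes. Within replicates 1, 2 and 3 the difference was -0.63, -0.67 and -0.68, and in replicates 1 and 2 only the log2 fold change was -0.65 (limma adjusted p = 0.0236).

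The family members on either side of Cyp4f14 did not pass the test. Cyp4f15 read 10.20, 10.12 and 10.24 on the SRC-2 null arrays, against 9.99, 9.94 and 10.05 on the wild-type arrays, which did not overlap, and its log2 fold change of 0.20 (95% interval 0.01 to 0.38) did not pass (limma adjusted p = 0.262). Cyp4f13 read 8.09, 7.98 and 8.05 on the SRC-2 null arrays, against 8.0, 8.02 and 8.14 on the wild-type arrays. Its groups overlapped, and the log2 fold change was -0.02 (95% interval -0.20 to 0.17, limma adjusted p = 0.955).

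The genotype effect on Cyp4f14 lay 0.86 below that on Cyp4f15 on the log2 scale (difference -0.86, 95% interval -0.98 to -0.73) and 0.64 below that on Cyp4f13 (difference -0.64, 95% interval -0.77 to -0.52). For both, the arrays of the genotypes did not overlap and the exact two-sided permutation p was 0.10, the smallest possible. These 2 differences were chosen after the values were seen. Cyp4f16, further along the cluster, did not pass, at a log2 fold change of 0.02 (limma adjusted p = 0.948).

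Cyp4v3, on chromosome 8, the mouse counterpart of the human fatty acid hydroxylase CYP4V2, was measured by 2 probe sets, and neither passed. The brighter read 10.91, 10.78 and 10.77 on the SRC-2 null arrays, against 10.75, 10.73 and 10.70 on the wild-type arrays, a log2 fold change of 0.10 (limma adjusted p = 0.617). The other read 10.20, 10.23 and 10.12 on the SRC-2 null arrays, against 9.98, 10.07 and 10 on the wild-type arrays, a log2 fold change of 0.17 (limma adjusted p = 0.433 over 19612 single-gene probe sets). The groups did not overlap in either, but the differences did not exceed 0.36 at the upper end of their 95% intervals.

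**Figure D2:**
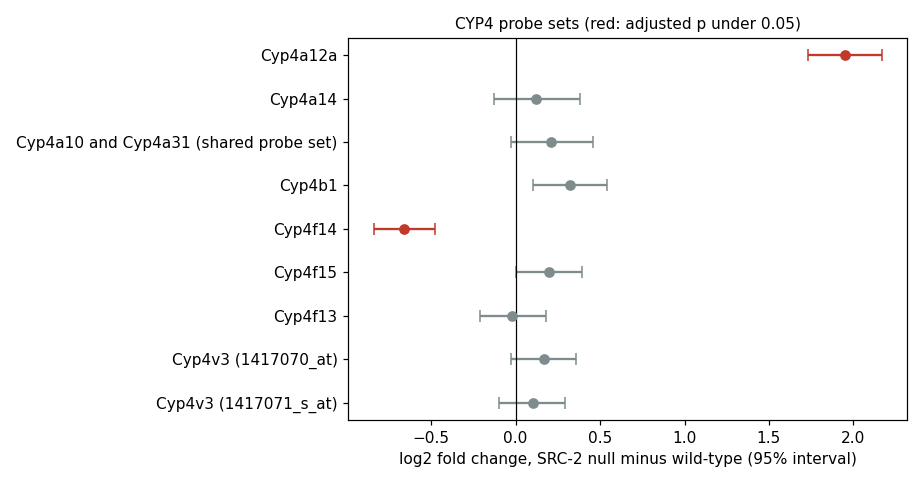
Log2 fold change, SRC-2 null minus wild-type, with its 95% interval for each CYP4 probe set and the shared Cyp4a10 and Cyp4a31 probe set, from the fits over probe sets (3 arrays per genotype). Cyp4a12a lies at 1.95 and Cyp4f14 at -0.66, while the other probe sets lie between -0.02 and 0.32.

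Counting genes whose SRC-2 null and wild-type arrays did not overlap, 5 of the 7 tested members qualified (71.4%), beside 23.4% of all genes tested. The 4 with SRC-2 null above, beside 10.8% of all genes, were Cyp4a12a, Cyp4b1, Cyp4f15 and Cyp4v3, and Cyp4f14 was the 1 below, beside 12.5%. Of these, Cyp4b1, Cyp4f15 and Cyp4v3 differed by no more than 1.25-fold, and did not pass the test. Members also varied little between arrays of 1 genotype. The pooled SD was below the median of all genes, 0.131, for 6 of 7, and Cyp4a14 had 0.134. Every tested member was brighter than at least 83.1% of all probe sets. Neither the spread nor the share without overlap was compared with genes of like brightness.

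The 5 genes outside the family with the most similar values to Cyp4a12a over the 6 arrays, by Euclidean distance between gene-centred log2 values, were Apoa4 (distance 0.291), Fabp4 (0.420), Lrtm2 (0.493), Cidea (0.688) and Cyp2d9 (0.746). Apoa4, an apolipoprotein, had a log2 fold change of 1.91, and Fabp4, which carries fatty acids in fat cells, one of 1.73. Lrtm2 had one of 1.68, and Cidea, a lipid droplet protein, one of 1.54. The wild-type means of Lrtm2 and Cidea, 4.18 and 3.62, lay below the filter on brightness. Low values hold mostly background, so a rise was the only large change that could be seen in these genes. Cyp2d9, a P450 known for male-biased expression in mouse liver, read 11.91, 11.91 and 11.98 on the SRC-2 null arrays, against 10.58, 10.56 and 10.58 on the wild-type arrays. Fabp4 is also an adipocyte marker, and over the 3 adipocyte markers tested the mean level was 6.35 to 6.40 in SRC-2 null liver and 5.57 to 5.71 in wild-type liver. Of these 3, Fabp4 alone was called, and Retn and Slc2a4 did not pass, at log2 fold changes of 0.30 and 0.12. With no filter on brightness, 2 of 5 adipocyte markers were called higher. The part of adipocyte transcripts in these rises was not tested.

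**Figure D3:**
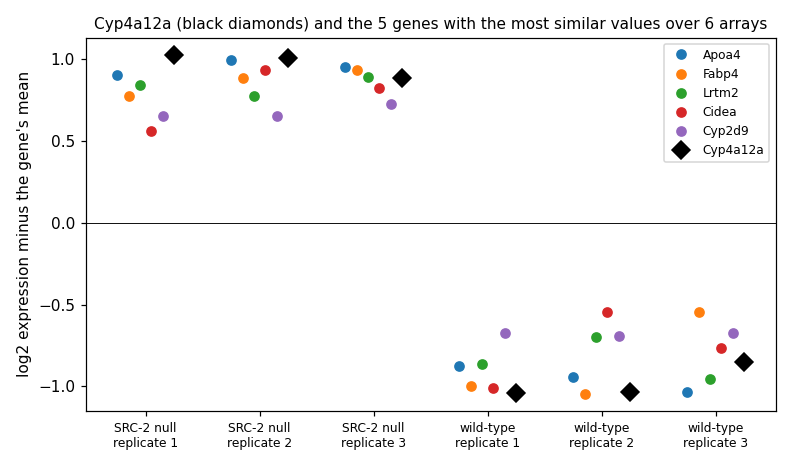
Log2 expression minus the gene's mean over the 6 arrays, for Cyp4a12a (black diamonds) and the 5 genes nearest to it, on each SRC-2 null and wild-type array. All 6 genes lie above 0 on the 3 SRC-2 null arrays and below 0 on the 3 wild-type arrays. The 5 genes were chosen for closeness to Cyp4a12a on these same arrays, so this shared pattern follows from the choice.

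PPARalpha targets were called in both directions. Of 35 tested, among them the CYP4 gene Cyp4a31, which did not pass, 2 were higher, 4 lower and 29 did not pass. Over all genes tested, 1.55% were higher and 3.13% lower. The median log2 fold change was 0.11 beside 0.00 over all genes. The 2 that rose were Cd36, a fatty acid transporter (log2 fold change 0.71, limma adjusted p = 0.013), and G0s2, an inhibitor of triglyceride lipase (0.45, adjusted p = 0.0165). The other Cd36 probe sets gave 0.77, which was called, and 0.57, which did not pass. The 4 that fell were Acot3, an acyl-CoA thioesterase (-1.22, adjusted p = 8.63e-05), Pdk4, a kinase that restrains pyruvate oxidation (-0.96, adjusted p = 0.00523), Acot1 (-0.38, adjusted p = 0.0329) and Angptl4, an inhibitor of lipoprotein lipase (-0.39, adjusted p = 0.037). Cpt1a, the gate of mitochondrial fatty acid oxidation, did not pass, at a log2 fold change of 0.43 (adjusted p = 0.0678). Acot1, Angptl4 and Cpt1a were named after their values were seen. With the replicate block 4 were higher. The number higher was 1 without SRC-2 null replicate 1, SRC-2 null replicate 2 or wild-type replicate 1 and 0 without wild-type replicate 2, and the number lower was 2 without each of these 4 arrays in turn. G0s2 lost its call without each of these 4, and Cd36 without wild-type replicate 2.

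Of the receptors and partners, Ppara itself read 9.23, 9.25 and 9.26 on the SRC-2 null arrays, against 9.45, 9.36 and 9.41 on the wild-type arrays, a log2 fold change of -0.16 that did not pass (limma adjusted p = 0.339). Its other probe sets had log2 fold changes of -0.26 and -0.36 and were not called. Of 15 such genes, 1 fell, beside 3.13% of all genes, with 0 higher (limma, also 0 at an unadjusted p under 0.05). The gene that fell was Nr0b2, the corepressor SHP (log2 fold change -0.95, limma adjusted p = 0.00127). Rxra, the usual partner of PPARalpha, had a log2 fold change of -0.01. The other p160 genes, Ncoa1 and Ncoa3, did not pass either, at log2 fold changes of -0.13 and -0.27.

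Of 19 tested genes listed as partners of CYP4 proteins or as acting after them in omega-oxidation, 2 fell and 17 did not pass, beside 3.13% of all genes lower. The number higher was 0 (limma, 3 at an unadjusted p under 0.05), with a median log2 fold change of -0.06 beside 0.00 over all genes. Adh4, an alcohol dehydrogenase that oxidizes long-chain and omega-hydroxy alcohols, read 8.64, 8.63 and 8.68 on the SRC-2 null arrays, against 9.21, 9.07 and 9.18 on the wild-type arrays (log2 fold change -0.50, limma adjusted p = 0.0103). Cyb5b, a cytochrome b5 of the outer mitochondrial membrane, had a log2 fold change of -0.49 (limma adjusted p = 0.00931) on its brightest probe set. The other 2, at -0.20 and 0.07, did not pass. Whether Cyb5b acts with CYP4 proteins was not tested. The other cytochrome b5 gene of the list, Cyb5a, did not pass, at 0.20 (limma adjusted p = 0.221), and was named after its value was seen. Ehhadh, the peroxisomal bifunctional enzyme that shortens dicarboxylic acids, had a log2 fold change of 0.28, and Acaa1a, a peroxisomal thiolase, one of 0.29, and neither passed. With the replicate block 4 fell. Without SRC-2 null replicate 2, 1 fell, since Adh4 lost its call (limma adjusted p = 0.0531).

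Of 18 other genes listed as enzymes and receptors of arachidonate and eicosanoids, 3 fell and 15 did not pass, beside 3.13% of all genes lower. The number higher was 0 (limma, 2 at an unadjusted p under 0.05), with a median log2 fold change of -0.07. Cyp2c70, a P450 that hydroxylates bile acids, read 9.81, 9.75 and 9.65 on the SRC-2 null arrays, against 11.76, 11.77 and 11.63 on the wild-type arrays. This was a fall of 3.97-fold (log2 fold change -1.99, limma adjusted p = 9.62e-06), and its part in arachidonate metabolism was not tested. The others were Cyp2j9 (-0.48, adjusted p = 0.0169) and Cyp2c37 (-0.43, adjusted p = 0.0309). With the replicate block 1 rose. The number that fell was 1, Cyp2c70, without SRC-2 null replicate 1, SRC-2 null replicate 2, wild-type replicate 1 or wild-type replicate 2, since Cyp2j9 and Cyp2c37 lost their calls in each.

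Among 16 male-biased liver genes tested, 5 were higher and 1 lower, beside 1.55% and 3.13% of all genes. The median log2 fold change was -0.01. Nat8, an acetyltransferase gene, had a log2 fold change of 1.56, Ugt2b38, a glucuronosyltransferase gene, one of 1.42, and Cyp2d9 one of 1.36. Susd4 had one of 0.74 and Gstp1, a glutathione transferase gene named after its value was seen, one of 0.49. The wild-type mean of Ugt2b38, 3.78, lay below the filter on brightness, so a large fall of this gene could not have been seen. The 1 that fell was Ugt2b1 (-0.43, limma adjusted p = 0.0173), also named after its value was seen, and it lost its call without SRC-2 null replicate 2, SRC-2 null replicate 3, wild-type replicate 1 or wild-type replicate 2. The male-biased genes Elovl3, Cyp7b1 and Slco1a1 did not pass, at log2 fold changes of -0.26, -0.17 and -0.02, and were named after their values were seen.

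Among 20 female-biased liver genes tested, 6 fell and 14 did not pass, beside 3.13% of all genes lower. The number higher was 0 (limma, 1 at an unadjusted p under 0.05), with a median log2 fold change of -0.22. The log2 fold change was -1.59 for Slc22a27, an organic anion transporter gene, -1.51 for Sult3a1, a sulfotransferase gene, -1.23 for Cyp17a1, a steroid hydroxylase gene, and -1.22 for Acot3, which is also counted among the PPARalpha targets. Of 13 genes listed for the androgen and growth hormone axis, 1 rose and 1 fell, beside 1.55% and 3.13% of all genes. Esr1, which encodes an estrogen receptor, rose (log2 fold change 0.42, limma adjusted p = 0.0423), and Igfals fell (-0.42, adjusted p = 0.0261). Esr1 was not called in any of the 6 fits without 1 array, and Igfals lost its call without any array but SRC-2 null replicate 3. Stat5b, which carries the growth hormone signal, did not pass, at a log2 fold change of -0.27 (limma adjusted p = 0.278), and was named after its value was seen.

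**Figure D4:**
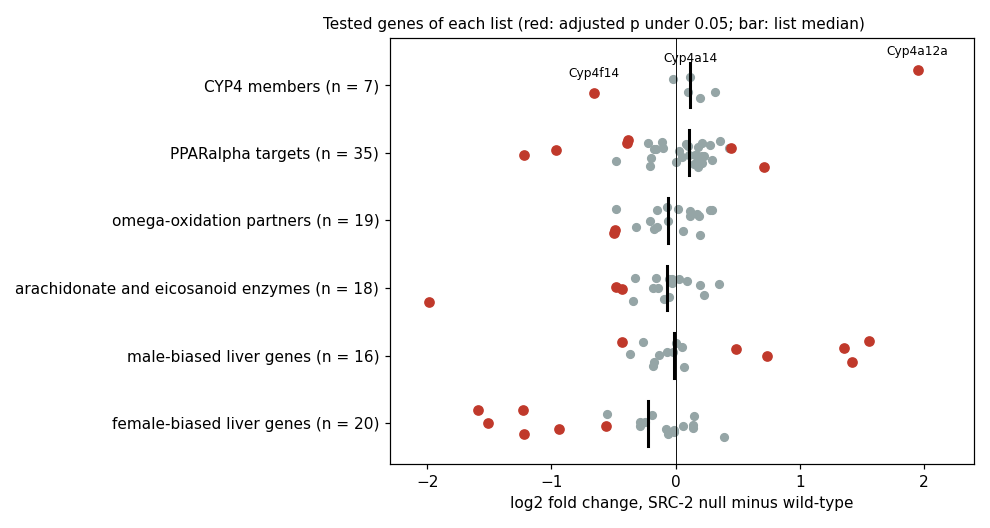
Log2 fold change, SRC-2 null minus wild-type, of each tested gene in 6 lists, with called genes in red and a bar at the list median. Cyp4a12a at 1.95 lies beyond every tested gene of the other 5 lists on the higher side, where the next is Nat8 at 1.56.

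Markers of several other cell types were called, beside 1.55% of all genes higher and 3.13% lower. The mean level of the 17 macrophage markers was 6.82 to 6.89 in SRC-2 null liver and 7.86 to 7.93 in wild-type liver, and that of 5 B and plasma cell markers was 5.12 to 5.39 in SRC-2 null liver and 6.80 to 7.11 in wild-type liver. Of 5 cholangiocyte markers, Krt23 was higher (log2 fold change 1.35) and Cd24a and Krt19 were lower (-1.0 and -0.48), with a mean level of 5.08 to 5.23 in SRC-2 null liver and 5.02 to 5.13 in wild-type liver. Of 9 stellate and fibroblast markers Rgs5 was higher (0.65), while its other probe sets, at 0.37, 0.53 and 0.83, did not pass. Of 10 endothelial markers Flt1 was higher (0.44), a call lost in each of the 6 fits without 1 array. Its other probe sets, at 0.12 and 0.06, did not pass. The part of these cell types in the rise of Cyp4a12a and the fall of Cyp4f14 was not tested. Cyp4f18, known as the leukotriene B4 hydroxylase of neutrophils in mouse, read below the filter on both of its probe sets, and 0 of 6 neutrophil markers changed (0 also at an unadjusted p under 0.05 in limma). Cyp4x1 and Cyp4f39 read below the filter as well, at means of 2.61 and 3.48. These 3 dim relatives were named after their values were seen.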

How the data were processed

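The authors deposited log2 values with a column for each array, made with RMA per the submitters' processing notes. No RMA version, chip description or genome build is given in the sources consulted. Gene names came from the platform's annotation. Of 45101 probe sets, 34945 had exactly 1 symbol, 932 several, 9160 none listed and 64 were controls.

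Each of 18193 genes was represented by its brightest probe set (mean over the 6 arrays), and the 11889 genes with a mean at or above 4.21 (log2), the median of all probe sets, were tested with limma 3.58.1 in R 4.3.3 (lmFit and eBayes, two-sided, genotype only). Calls required an adjusted p (Benjamini-Hochberg) under 0.05. Each single-gene probe set was also tested on its own. The procedure was tested on simulated data. Differences between 2 members used an exact permutation test over the arrays, with intervals from the pooled spread of the 2 genotypes. The contrast within the Cyp4a genes was meant to include Cyp4a12b and Cyp4a10, which had no probe set of their own.

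The replicate 3 samples of both genotypes deviated together (correlation of deviations from the group means of 0.52 over 11889 genes). For numbers 1 and 2 the correlations were 0.18 and 0.20, not told apart from those of their crossed pairs (0.21 and 0.17). The values thus set replicate 3 apart but do not show that numbers 1 and 2 pair samples. For the differences within replicates and for the replicate block only, the number was nevertheless taken to pair the samples. The reported fit and the permutation tests were unpaired, and the pairing entered as an alternative fit with the number as a block. No 2 arrays held identical values. The number of arrays limits the precision, and low values hold mostly background. The members and lists were chosen with earlier results of these data known. The genes named were the members, Ncoa1 to Ncoa3, Ppara, up to 4 genes per list with the smallest p, and the 5 genes nearest to the member with the largest change. Where a gene outside this rule is named, the text says so. Rxra was also chosen with its value known. Sequences are from RefSeq, and Python 3.11.15, Biopython 1.88 and matplotlib 3.10.9 were used.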

Additional observations from a re-analysis of the deposited data

How the results depend on the processing

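Cyp4a12a stayed higher and Cyp4f14 lower, each called, in the 14 alternatives run for all genes, namely 2 other filters, the mean of all probe sets, a trended and robust variance, equalised array medians, the replicate block, a batch block for replicate 3, replicates 1 and 2 only, and each array left out in turn. The log2 fold change of Cyp4a12a ranged from 1.92 to 2.01 with 1 array left out (adjusted p 5.74e-05 to 0.000332), and that of Cyp4f14 from -0.68 to -0.65 (0.00677 to 0.014). No other member was called in any alternative. Cyp4f13, at -0.02, changed sign to 0.02 in replicates 1 and 2 only, 0.01 without SRC-2 null replicate 2 and 0.03 without wild-type replicate 3, with a range of -0.04 to 0.03 over the left-out arrays, gene and probe set alike. The excess of Cyp4a12a over Cyp4a14 ranged from 1.77 to 1.91 with 1 array left out.

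The count of genes changed was 984 with the batch block and 329 in replicates 1 and 2 only, and 275 to 438 with 1 array left out. The count higher was 307 with the replicate block, 376 with the batch block, 95 in replicates 1 and 2 only and 65 to 174 with 1 array left out. The count lower was 608 with the batch block, 234 in replicates 1 and 2 only and 210 to 315 with 1 array left out. Against 2 in the reported fit, PPARalpha targets higher numbered 4 with the mean of all probe sets or the stricter filter and 5 with the trended variance or the batch block, and lower ones 2 with no filter and 2 in replicates 1 and 2 only, against 4. Omega-oxidation partners higher numbered 2 with the trended variance and 1 with the batch block, against 0. Eicosanoid genes lower numbered 5 with the trended variance or the batch block, against 3, and higher ones 1 with these, the mean of all probe sets or the stricter filter, against 0. Male-biased genes higher numbered 3 with the stricter filter, against 5. The replicate block left the call of every member as it was. The cause of these shifts was not tested, apart from the smaller number of samples where arrays were left out. Cyp4a14 and the shared Cyp4a10 and Cyp4a31 probe set lay near the top of the scale, and whether their signal was saturated was not tested.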

Other observations

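On chromosome 4, Cyp4a12a had a log2 fold change of 1.95 and Cyp4a14, a few family members further on, one of 0.12. On chromosome 17, Cyp4f14 had one of -0.66 between Cyp4f15 at 0.20 and Cyp4f13 at -0.02. Of the enzymes next to these in lipid handling, the epoxide hydrolase gene Ephx2 did not pass, at a log2 fold change of 0.35 (limma adjusted p = 0.0617), and Acot4, a peroxisomal thioesterase gene, had one of -0.48 (adjusted p = 0.172). Both were named after their values were seen. Cyp4a14, Ehhadh and the probe set shared by Cyp4a10 and Cyp4a31 each had their highest SRC-2 null value on replicate 1 and their lowest on replicate 3, at 12.84 and 12.48, 12.08 and 11.84, and 13.60 and 13.29.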
